A study of Mus musculus with 2 samples.

Results

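This report describes the 68 genes that were present at an RPKM of at least 0.5 in PBS-treated neutrophils and below an RPKM of 0.25 in neutrophils treated with tumor exosomes. RPKM is the number of reads on a gene scaled by the length of its exons and by the mapped reads of the library. The 68 members came from 8924 genes at an RPKM of at least 0.5 in PBS, among 35522 features listed, so that 0.762% of the genes that could qualify did so. The values that chose the members are the values of the comparison itself, and all member counts and differences below are therefore a description with no test. The 25 features whose names a spreadsheet had turned into date numbers were left out, and none of them met the limits.

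Bone marrow neutrophils of mice were sorted as CD11b-positive cells with high Ly-6G and with low or no Ly-6C, and were kept for 3 days in medium with 10 ng/ml GM-CSF, which sustains myeloid cells. They were given PBS or 20 µg/ml exosomes of SDCSCs, the sphere-derived cancer stem cells obtained by growing the murine colon carcinoma line CT26 in stem cell medium. Each treatment had 1 mRNA library, so no value carries a replicate error, and whether cells of several animals were pooled is not given in the sources used here. The exosomes came from a single cell line, and exosomes of other cells are not analysed here.

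A neutrophil is a short-lived granulocyte that makes most of its granule proteins in the bone marrow and enters culture with a transcriptome ruled by a few very abundant messages. Deep sequencing also reads the low end of such a transcriptome, where genes best known from other tissues, such as receptors of nerve cells or proteins of skin, are commonly listed at small values. In bulk RNA, fewer cells of a type and less RNA per cell cannot be told apart.

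Depth was estimated at 65.95 M reads (M, mega) in the PBS library and at 79.13 M in the exosome library. The exosome library was thus the deeper of the pair, by a factor of 1.199 read from the values alone. The labelled cell type was borne out by the level of its markers. All 37 of the 37 mature neutrophil genes listed were at an RPKM of at least 0.5 in PBS. Their summed RPKM was 90202.7 in PBS and 37540.68 with exosomes. Most of both sums was S100a8 (32822.83 and 14400) and S100a9 (43059.08 and 13800). None of the 37 neutrophil genes was a member, but their median log2 ratio was -1.11. By 2-fold or more, 21 of them were lower with exosomes and 4 higher, against 6.85% and 28.6% of all genes at that level. Detection alone did not set the 37 apart. Of the B cell markers, 19 of 25 also reached 0.5 RPKM in PBS, with a list sum of 192.42. Of the megakaryocyte and platelet markers, 15 of 20 did, with a list sum of 55.69. Most genes moved the other way from the members: of the 8924 genes, 2548 (28.6%) were 2-fold or more higher with exosomes, against 611 (6.85%) that were 2-fold or more lower, and the median log2 ratio was 0.47. Here and below, a log2 ratio is log2 of the exosome RPKM plus 0.01 over the PBS RPKM plus 0.01.

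The members were low genes that became lower. Their PBS RPKM ran from 0.5 to 3.3 with a median of 0.76, and 46 of the 68 lay below 1. Their exosome RPKM ran from 0.00511 to 0.24 with a median of 0.135. The PBS value was 2.41 to 125 times the exosome value, with a median of 6.09, and the median log2 ratio was -2.50. The plain ratio of PBS to exosome RPKM was at least 4 in 49 members, among 159 (1.78%) of the 8924 genes that were lower by that much, at least 8 in 24 members, and at least 20 in 10. Together they held a summed RPKM of 65.58 in PBS and 9.52 with exosomes, which is 0.0183% and 0.00274% of all RPKM.

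**Figure D1:**
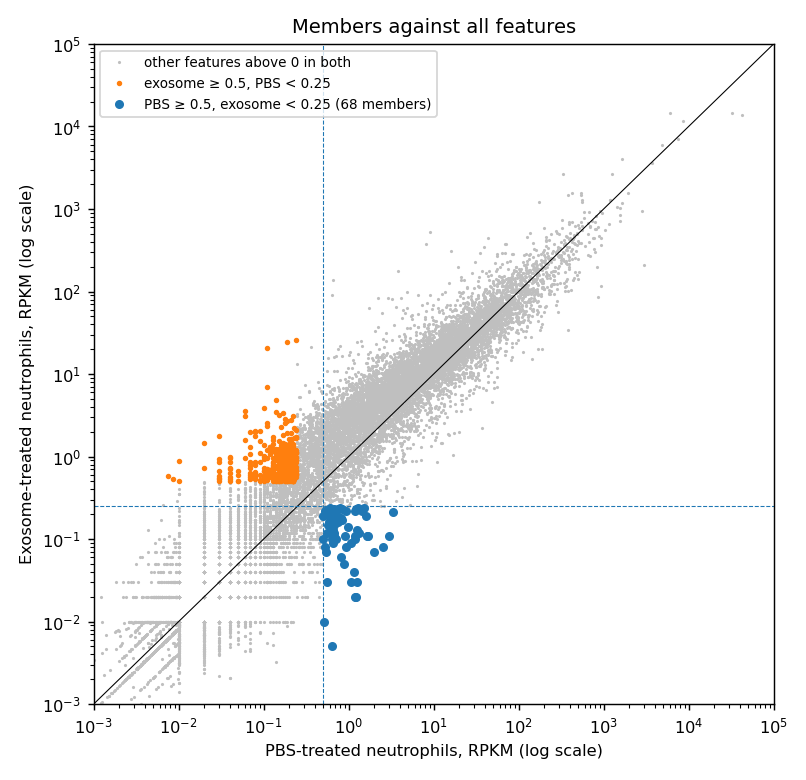
RPKM in exosome-treated (y axis) against PBS-treated neutrophils (x axis), both on log scales, for each feature above 0 in both libraries, with the 68 members in blue, the 352 features that passed the same limits in the other direction in orange, and all others in grey. The members sit below the dashed horizontal line at 0.25 and right of the dashed vertical line at 0.5, and none lies beyond a PBS RPKM of 3.3.

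No member was lost in the sense of having no reads. None was listed at 0 with exosomes, and neither was any other of the 8924 genes: the highest PBS RPKM of a feature at 0 with exosomes was 0.24. A single member, Angpt2, lay below 0.01. Of the others, 7 were below 0.05, 9 were from 0.05 to 0.1, 18 from 0.1 to 0.15, 15 from 0.15 to 0.2, and 18 from 0.2 up to the limit. With the length of the longest annotated transcript, which 64 members had, the exosome values correspond to 1 to 215 reads with a median of 23, and the PBS values to 17 to 989 reads with a median of 139. Only Hba-a1, Angpt2, Hist1h3b and Hcrtr1 had 3 reads or fewer with exosomes by this estimate.

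Counting error was set against the limits, as a description of values that had also chosen the members. The 95% counting interval of the log2 ratio, a Clopper-Pearson interval on the estimated reads, lay below 0 in all 64 members with a length, as the limits favour, and below -1 in 57 of them. The interval of the exosome RPKM reached 0.25 in 23 members, and that of the PBS RPKM reached below 0.5 in 17. In 33 members neither limit was within the interval. These intervals cover counting error only and say nothing of the spread between cultures or animals. They also rest on the longest annotated transcript, since the gene lengths the authors used are not known. Where that transcript is longer than the length used, the reads are overstated and the interval is too narrow.

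At the limits the choice of members was close. On the exosome side, Il1f8 (0.61 RPKM in PBS, 0.24 with exosomes), Nav2 (0.79 and 0.24) and S100a2 (1.3 and 0.24) were just inside. Ccdc63 (2.62 and 0.25), Tgm3 (2.4 and 0.25) and Padi3 (1.26 and 0.25) were just outside, among 7 features at exactly 0.25. On the PBS side, Ces1d (0.5 and 0.1), Car2 (0.5 and 0.19) and Hcrtr1 (0.51 and 0.01) were inside, and Cdkn2b (0.49 and 0.05), Unc5a (0.49 and 0.17) and Gata1 (0.49 and 0.23) were outside.

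How often a gene dropped below 0.25 depended on its level, and the opposite movement was the more frequent at each level. The fixed limit builds in the dependence on level, since a gene at a higher RPKM must fall further to pass it. Among genes at 0.5 to 0.6 RPKM in PBS, 13 of 270 (4.81%) were members, and at 0.6 to 0.8 RPKM 24 of 449 (5.35%) were. The share was 2.49% (9 of 361) at 0.8 to 1 RPKM and 1.58% (19 of 1201) at 1 to 2 RPKM. At 2 to 3.5 RPKM it was 0.308% (3 of 974), and none of the 5669 genes at 3.5 RPKM or more was a member. A fall of 2-fold or more, which does not use the limit, was not confined to low genes. It was seen in 15 of 270 genes at 0.5 to 0.6 RPKM, 80 of 1201 at 1 to 2 RPKM and 411 of 5669 at 3.5 RPKM or more. The same limits with the libraries exchanged gave 352 of 9660 genes (3.64%), including 73 of 187 (39.0%) at 0.5 to 0.6 RPKM with exosomes and 94 of 1005 (9.35%) at 1 to 2 RPKM. Genes of the lowest levels that were not members were mostly higher with exosomes, with a median log2 ratio of 1.11 at 0.5 to 0.6 RPKM and 1.02 at 1 to 2 RPKM.

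**Figure D2:**
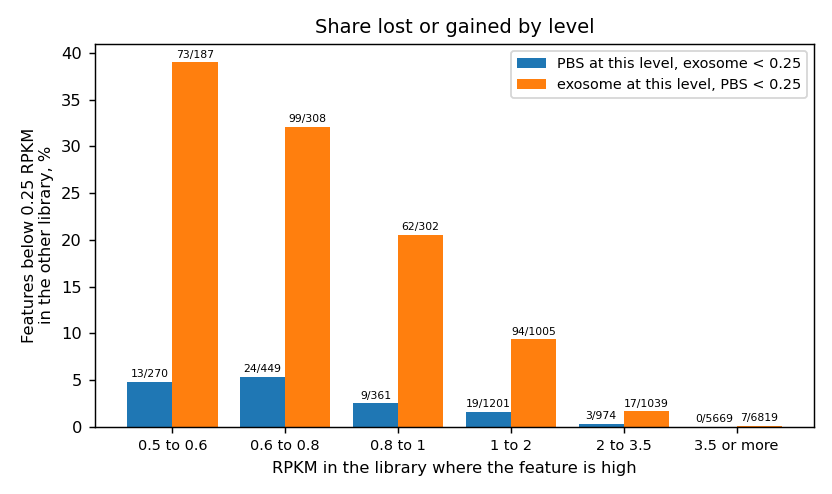
Bars show the percentage of genes (y axis) that were below 0.25 RPKM in the other library, for genes grouped by RPKM in the library where they were high (x axis), with members in blue, the opposite direction in orange, and the counts above each bar. The orange bar is the taller in each of the 6 level groups, for instance 39.0% against 4.81% at 0.5 to 0.6 RPKM.

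By kind, the members were a mixture. Of the 68, 64 matched a RefSeq gene and all 64 were protein coding. The unmatched names were 5430421N21Rik, Gm5428, Gm4055 and Large. Provisional names (clone, predicted or GenBank names) were borne by 4 of 68 members (5.88%), against 8.07% of the 3084 genes of the same PBS range that stayed at 0.25 RPKM or more and 11.6% of the 352 genes in the opposite direction. No microRNA or small nucleolar RNA reached 0.5 RPKM in PBS, so none could be a member. Of the marker and function lists, 8 members stood on one, namely Hba-a1, Car2, Cd3g, Ccr3, Erg, Jam3, Il1f8 and Il23a, and 60 stood on none. The share of all 8924 genes that stand on a list was not counted. Whether members stood on lists more or less often than other genes is thus not shown. To cover those on no list, the members are described below in 12 groups by known role.

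**Figure D3:**
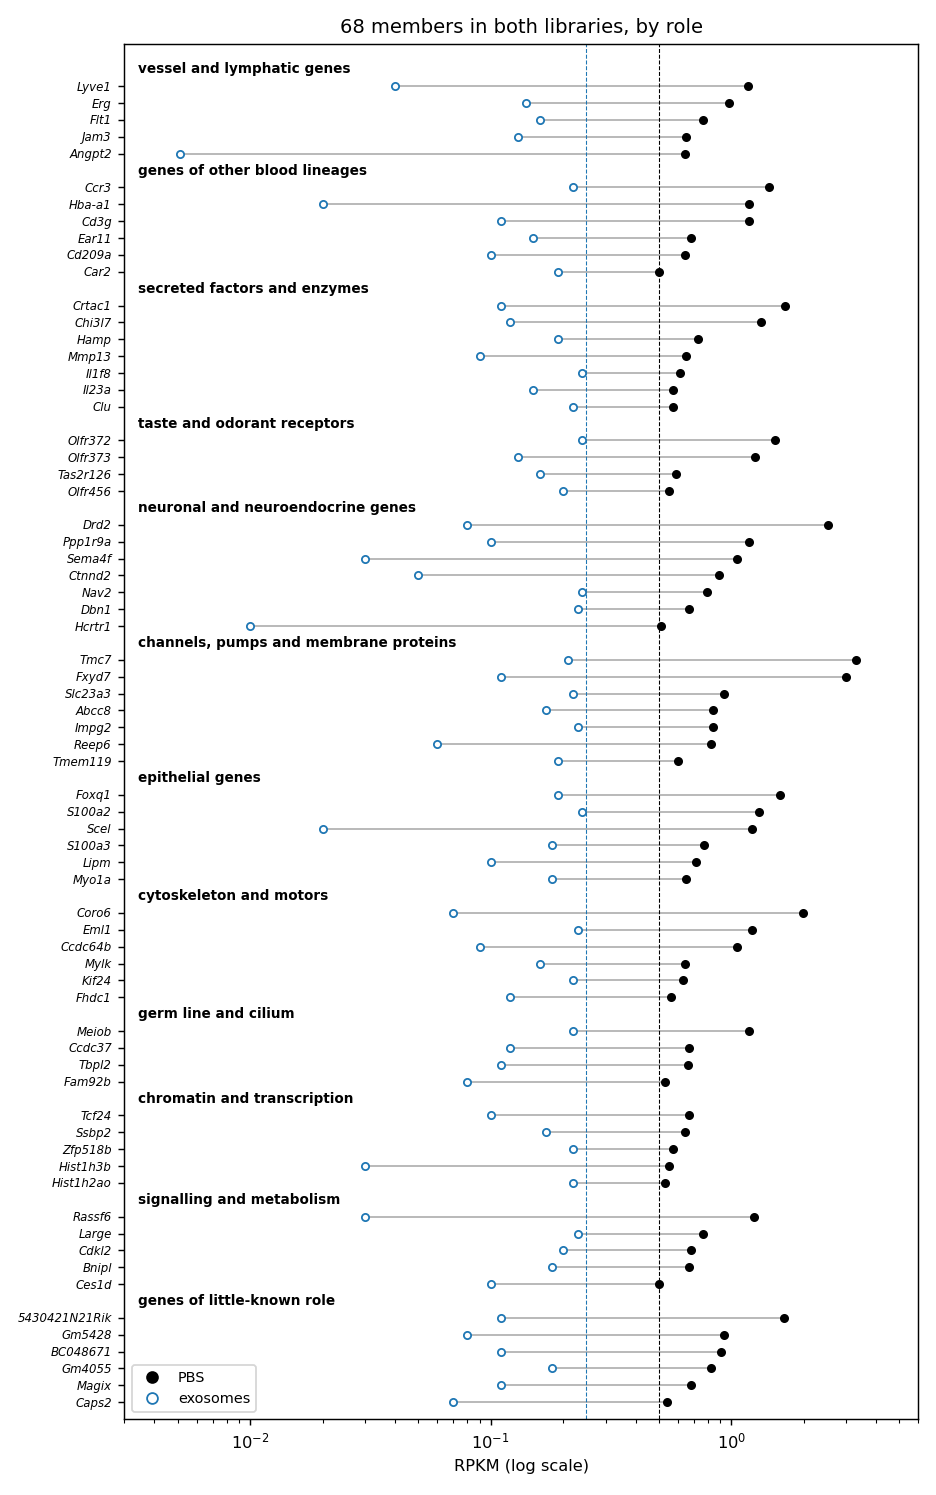
RPKM on a log scale (x axis) of each of the 68 members (rows, grouped by role) in PBS-treated (black) and exosome-treated (open blue) neutrophils, 1 library each, with dashed lines at the limits of 0.5 and 0.25. The longest lines belong to Angpt2, Hba-a1, Scel and Hcrtr1, and the open circles of the taste and odorant receptors lie between 0.13 and 0.24.

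The members with the highest PBS levels encode membrane proteins and a coronin. Tmc7, a transmembrane channel-like protein (chr7:118535841-118584829, mm10), was at 3.3 RPKM in PBS and 0.21 with exosomes, a log2 ratio of -3.91 with a counting interval of -4.32 to -3.63. Fxyd7 (chr7:31042515-31051454), a small regulator of the sodium pump known from brain, was at 3.0 and 0.11 RPKM, a log2 ratio of -4.65 (-6.25 to -3.62). Coro6 (chr11:77462321-77470484), an actin-binding coronin, was at 1.98 and 0.07 RPKM, a log2 ratio of -4.64 (-5.60 to -4.06). Relatives of these genes had values of either direction. Tmc4 was at 14.56 RPKM in PBS and 6.41 with exosomes, Tmc6 at 4.31 and 5.09, and Tmc3 at 0.14 and 3.47. Coro1a, the main coronin of leukocytes, was at 963.92 and 891 RPKM. Other channel, pump and membrane genes among the members were Slc23a3, Abcc8, Impg2, Reep6 and Tmem119, and the 7 genes of this group had log2 ratios of -4.65 to -1.61. Abcc8 encodes the sulfonylurea receptor of potassium channels and was at 0.84 and 0.17 RPKM. Of the pore genes of these channels, Kcnj8 lay outside the limits at 3.67 and 0.38 RPKM, and Kcnj11 was at 0.05 and 0.0. The other receptor gene, Abcc9, was at 0.0 in both libraries.

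Among 7 neuronal and neuroendocrine genes, Drd2, Sema4f, Ctnnd2 and Hcrtr1 stood at or below 0.08 RPKM with exosomes. Drd2, the D2 dopamine receptor (chr9:49340360-49408177), was at 2.52 RPKM in PBS and 0.08 with exosomes, about 423 and 16 reads, and its log2 ratio was -4.81 (-5.81 to -4.27). The other dopamine receptors, Drd1a, Drd3, Drd4 and Drd5, were listed at 0 in both libraries. Hcrtr1, the type 1 orexin receptor, was at 0.51 and 0.01 RPKM, about 82 and 2 reads, with a log2 ratio of -4.70 (-8.69 to -3.72), while Hcrtr2 and the orexin gene Hcrt were at 0 in both. Sema4f, a transmembrane semaphorin, was at 1.06 and 0.03 RPKM, whereas the leukocyte semaphorin Sema4d was at 165.78 and 212. Ctnnd2, a delta-catenin of nerve cells, was at 0.89 and 0.05 RPKM. Ppp1r9a (neurabin, an actin-binding scaffold of synapses) was at 1.19 and 0.1 RPKM. Nav2 and Dbn1 were nearer the limit, at 0.24 and 0.23 RPKM with exosomes.

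The smell and taste receptor families gave 4 members: Olfr372 (1.52 RPKM in PBS, 0.24 with exosomes), Olfr373 (1.25 and 0.13), Tas2r126 (0.59 and 0.16) and Olfr456 (0.55 and 0.2). Of 2099 olfactory, vomeronasal and taste receptor features, 1989 were at 0 in both libraries and 7 reached 0.5 RPKM in PBS. All 7 were 2-fold or more lower with exosomes, against 6.85% of all genes. The 3 others kept above the limit were Tas1r3 (0.7 and 0.34), Tas2r135 (4.85 and 1.69) and Tas2r143 (4.24 and 1.48). Olfr372 and Olfr373 lie 41087 bases apart on chromosome 8 with no listed feature between them. They share sequence: 29.0% of the 50-base words of the Olfr372 transcript occur in another annotated transcript, and 25.3% of those of Olfr373. Tas2r126 and Olfr456 lie 50702 bases apart on chromosome 6, and Tas2r126 lies 28041 bases from Tas2r135. The values of Olfr372 and Olfr373 are therefore not separate observations, and the 7 receptors do not stand for 7 separate loci.

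Genes of blood vessels and lymphatics made up 5 members. Lyve1, a hyaluronan receptor of lymphatic endothelium and some macrophages, was at 1.17 RPKM in PBS and 0.04 with exosomes, a log2 ratio of -4.56 (-6.04 to -3.94). Another hyaluronan receptor, Cd44, was at 204.39 and 223 RPKM. Angpt2, a secreted ligand of the Tie2 receptor (chr8:18690263-18741562), was at 0.64 and 0.00511 RPKM, about 150 reads and 1 read, the lowest exosome value of all members. Its log2 ratio of -5.43 rests on that 1 read and has a counting interval of -12.80 to -4.99. The Tie2 gene Tek was at 0.01 RPKM in both libraries and Angpt1 at 0.18 and 0.09. Flt1, a receptor of vascular endothelial growth factor that monocytes also carry, was at 0.76 and 0.16 RPKM. Its co-receptor genes went apart, with Nrp1 at 2.5 and 0.69 RPKM and Nrp2 at 0.18 and 1.23, and Kdr was at 0.09 and 0.1. Erg, an ETS transcription factor of endothelium and blood stem cells, was at 0.98 and 0.14 RPKM, while Fli1, its close relative in leukocytes, was at 28.94 and 27.3. Jam3, a junctional adhesion molecule, was at 0.65 and 0.13 RPKM. Of 27 stromal and endothelial marker genes listed, 4 reached 0.5 RPKM in PBS and none was a member, against 0.762% of all genes at that level. The summed RPKM of the 27 was 329.35 in PBS and 183.97 with exosomes.

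Genes that belong to other blood lineages made up 6 members, and their values are given beside those of the marker list of each lineage. Cd3g, a chain of the T-cell receptor complex, was at 1.19 RPKM in PBS and 0.11 with exosomes, a log2 ratio of -3.32 (-4.15 to -2.80). Its neighbour and partner Cd3d was at 56.44 and 7.02 RPKM, but the third CD3 chain, Cd3e, was at 0.06 and 0.04. Cd247 was at 0.8 and 0.31, the T-cell kinase gene Lck at 0.95 and 0.93, and Cd4 and Cd8a were at or below 0.1 in both. The T and NK cell list had 7 of 31 genes at 0.5 RPKM or more in PBS. By 2-fold or more, 3 of these 7 were lower with exosomes and 0 higher, against 6.85% and 28.6% of all genes at that level. The list sum of 63.37 in PBS and 12.06 with exosomes was mostly Cd3d. The part of T cells in these values was not tested.

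Ccr3, the eotaxin receptor of eosinophils and basophils, was at 1.44 RPKM in PBS and 0.22 with exosomes, a log2 ratio of -2.66 (-3.14 to -2.30). Ear11, an eosinophil-associated ribonuclease, was at 0.68 and 0.15 RPKM, and among its paralogs Ear2 was at 6.41 and 0.44, Ear1 at 0.06 and 0.25, and Ear6 at 0.34 and 0.41. Of the defining eosinophil genes, Epx, the eosinophil peroxidase, was at 0.15 and 0.13 RPKM, Il5ra at 0.16 and 0.09, the granule protein gene Prg2 at 5.32 and 2.93, and Siglec5 at 3.57 and 1.92. Of 24 listed eosinophil, basophil and mast cell markers, 8 reached 0.5 RPKM in PBS. By 2-fold or more, 3 of these 8 were lower and 0 higher, against 6.85% and 28.6% of all genes at that level. The list sum was 105.68 in PBS and 31.41 with exosomes, mostly Hdc (84.61 and 21.13), the histidine decarboxylase that neutrophils can also express. The part of eosinophils and basophils was not tested.

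Hba-a1, the alpha chain of haemoglobin, was at 1.19 and 0.02 RPKM, about 55 reads and 1 read, with a log2 ratio of -5.32 (-11.37 to -3.51). The near-copy Hba-a2, with which it shares 67.5% of its 50-base words, was at 0.83 and 0.31 RPKM, and the beta chain Hbb-b1 at 0.36 and 0.08. Reads of the alpha genes may have been split between the copies, so the value of each is uncertain. Car2, carbonic anhydrase 2 of red cells and many other cells, was at 0.5 and 0.19 RPKM. Of 22 red cell markers listed, 4 reached 0.5 RPKM in PBS. Of these 4, 3 (Hba-a1, Hba-a2 and Car2) were 2-fold or more lower, as were 6.85% of all genes at that level. The fourth, the transferrin receptor Tfrc of dividing cells, was at 7.71 and 38.24 RPKM and made up most of the summed RPKM of 11.81 in PBS and 39.6 with exosomes. Car1, Rhag, Add2 and Tspo2 were at 0 in both libraries. Cd209a, a lectin of dendritic cells, was at 0.64 and 0.1 RPKM, and its paralogs Cd209b to Cd209e were at 0 in both. A further paralog, Cd209g, passed the same limits in the opposite direction. Of the monocyte, macrophage and dendritic cell markers, 15 of 30 listed reached 0.5 RPKM in PBS. None of the 15 was a member, against 0.762% of all genes at that level. By 2-fold or more, 2 of the 15 were lower and 4 higher with exosomes, against 6.85% and 28.6% of all genes. The list sum was 425.78 in PBS and 662.23 with exosomes. The part of red cells, monocytes and dendritic cells was not tested.

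Secreted factors and enzymes gave 7 members. Crtac1, a cartilage matrix protein, was at 1.68 RPKM in PBS and 0.11 with exosomes, a log2 ratio of -3.82 (-4.60 to -3.31). Chi3l7, a chitinase-like gene, was at 1.33 and 0.12 RPKM, and Chi3l3, a product of myeloid cells, was at 26.87 and 3.82, whereas Chi3l1 was at 433.37 and 436. Mmp13, a collagenase, was at 0.65 and 0.09 RPKM, beside the neutrophil collagenase Mmp8 at 832.76 and 200 and Mmp14 at 0.59 and 5.04. Hamp, which encodes the iron hormone hepcidin, was at 0.73 and 0.19 RPKM on about 20 and 6 reads, and the iron exporter that hepcidin binds, Slc40a1, was at 149.34 and 62.1.

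The cytokine members were Il23a and Il1f8. Il23a, the p19 chain of interleukin-23, was at 0.57 and 0.15 RPKM with a log2 ratio of -1.86 (-2.76 to -1.22). Il12b, the chain it pairs with, was at 0.18 and 0.29 RPKM, and the related Il12a was at 2.44 and 55.3 and Ebi3 at 54.0 and 176. Il1f8, interleukin-36 beta, was at 0.61 and 0.24 RPKM, beside Il1f6 (interleukin-36 alpha) at 0.81 and 2.66 and Il1f9 (interleukin-36 gamma) at 747.88 and 439. Clu, the secreted chaperone clusterin, was at 0.57 and 0.22 RPKM.

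Among 6 genes known from epithelia, Scel showed the widest gap. Scel, the sciellin of the cornified envelope of skin (chr14:103513061-103613346), was at 1.22 RPKM in PBS and 0.02 with exosomes, about 197 and 4 reads, with a log2 ratio of -5.36 (-7.77 to -4.51). The forkhead factor Foxq1 was at 1.59 and 0.19 RPKM. S100a2 (1.3 and 0.24) and S100a3 (0.77 and 0.18) are calcium-binding proteins of skin and hair whose annotated spans overlap on chromosome 3, and S100a2 rests on about 27 and 6 reads. The abundant S100 genes of neutrophils were lower too but far from the limits, with S100a6 at 940.82 and 365 RPKM and S100a11 at 2854.85 and 936, whereas S100a4 was at 1.09 and 2.76. Lipm, an epidermal lipase, was at 0.71 and 0.1 RPKM, and Myo1a, the myosin of the intestinal brush border, at 0.65 and 0.18. Of the 24 epithelial and colon carcinoma markers listed, only 4 reached 0.5 RPKM in PBS and could be members, and none was. With 0.762% of all genes at that level being members, 0 of 4 says little.

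Of the cytoskeleton genes other than Coro6, Eml1 (a microtubule-binding protein) was at 1.22 RPKM in PBS and 0.23 with exosomes, and Ccdc64b (an adaptor of the dynein motor, Bicdl2 in RefSeq) at 1.06 and 0.09. Mylk, the myosin light chain kinase of smooth muscle and endothelium, was at 0.64 and 0.16 RPKM, while the non-muscle light chain Myl12b was at 560.02 and 553. Kif24 and Fhdc1 completed the 6, whose log2 ratios were -4.64 to -1.48. The 4 genes of the germ line and the cilium were Meiob, a protein of meiotic recombination (1.19 and 0.22 RPKM), Ccdc37, Tbpl2 and Fam92b, with log2 ratios of -2.58 to -2.38.

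Chromatin and transcription gave 5 members at 0.53 to 0.67 RPKM in PBS, namely Tcf24, Ssbp2, Zfp518b and the histone genes Hist1h3b and Hist1h2ao. The histone values are uncertain, since 60.4% and 93.5% of their 50-base words occur in other histone transcripts, and they rest on about 22 and 17 reads in PBS. Of 33 histone genes at 0.5 RPKM or more in PBS, 2 (6.06%) were members, against 0.762% of all genes at that level. By 2-fold or more, 6 of the 33 were lower and 4 higher, against 6.85% and 28.6% of all genes at that level. A further 2 histone genes passed the limits in the opposite direction. Signalling and metabolism gave 5 members, led by Rassf6, a Ras-association protein (1.24 and 0.03 RPKM, log2 ratio -4.97 with an interval of -7.06 to -4.18). Its relative Rassf4 stood out in the other direction, at 2.22 and 82.7 RPKM, and Rassf2 was at 62.16 and 70.3. Large, Cdkl2, Bnipl and Ces1d had log2 ratios of -2.21 to -1.68. The 6 genes of little-known role, 5430421N21Rik (1.66 and 0.11 RPKM), Gm5428, BC048671, Gm4055, Magix and Caps2, had exosome values of 0.07 to 0.18.

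The position of the members was compared with that of other genes, a property the limits did not use. The 64 members that could be placed lay on 19 chromosomes, and 7 pairs of members were within 1000000 bases of each other. For 60 members the nearest gene at 0.5 RPKM or more in PBS was not itself a member, and 21 of these 60 neighbours (35.0%) were 2-fold or more lower with exosomes. Of the neighbours of 3021 genes in the same PBS range that stayed at 0.25 RPKM or more, 135 (4.47%) were. For genes that were 2-fold or more lower without being members the share was 104 of 514 (20.2%), and for genes in the opposite direction it was 7 of 340 (2.06%). Within a gap of 10000 bases the shares were 14 of 28 (50%) for members, 3.42% for the genes that stayed, 25.5% for the other lower genes and 1.5% for the opposite direction. The median PBS RPKM of the neighbours was 9.18 for members and 5.79 for the genes that stayed. These are shares over genes of 1 pair of libraries, with no test.

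Many of these neighbours were far more abundant than the member. Cd3g lies 1338 bases from Cd3d (56.44 and 7.02 RPKM), and Fxyd7 lies 184 bases from Fxyd5 (685.16 and 266.6 RPKM). Magix lies 1776 bases from Plp2 (284.74 and 76.97), Hcrtr1 2083 bases from Pef1 (82.63 and 36.26), and Ccr3 49133 bases from Ccr1 (383.78 and 101.97). Lipm overlaps Ankrd22 (56.17 and 9.09) on the opposite strand, where 34.9% of its exon bases are also Ankrd22 exon, and Angpt2 lies within Mcph1 (1.92 and 0.3), also on the opposite strand. Exons of Foxq1 (66.1% of bases), Jam3 (36.2%), Hist1h2ao (28.8%), Ssbp2 (22.1%) and Chi3l7 (19.9%) also overlap an annotated transcript on the opposite strand. The sources used here do not state whether reads were counted by strand, so for these members and Lipm the reads of the overlapping genes cannot be told apart. A member lay downstream of its neighbour on the same strand in 12 of the 60 cases. The neighbour was 2-fold or more lower in 4 of these 12, beside 21 of all 60. In the same position it was lower in 32 of 663 cases for the genes that stayed and in 25 of 151 for the other lower genes. Shared sequence leaves 3 further members uncertain, as Olfr456 shares 26.1% of its 50-base words with other transcripts, Hamp 16.6% with its paralog Hamp2 and Bnipl 15.8% with the overlapping Gm128. The neighbours from Cd3d to Mcph1 above are all among the 21 that were 2-fold or more lower. Other abundant neighbours were not: Ets2 beside Erg was at 94.41 and 196.58 RPKM, and Lpcat2 beside Ces1d at 106.79 and 188.11. Wdr1 beside Zfp518b was at 118.62 and 133.98 RPKM, and Tpm4 beside Olfr373 at 263.32 and 246.53. Of the 60 neighbours, 10 (16.7%) were 2-fold or more higher, such as Pon3 beside Ppp1r9a, at 0.56 and 10.77 RPKM. For the genes that stayed this share was 32.1%.

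**Figure D4:**
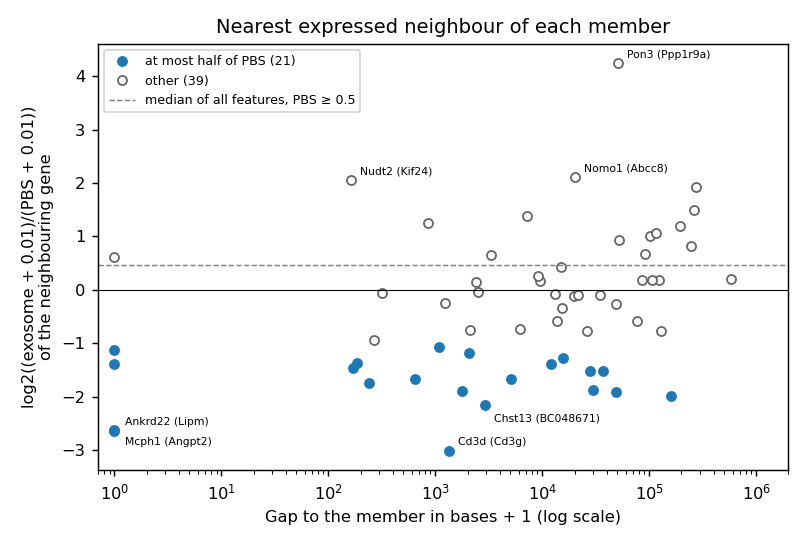
Log2 ratio of the nearest gene at 0.5 RPKM or more in PBS (y axis) against its gap to the member in bases plus 1 on a log scale (x axis, overlapping genes at the left edge), for the 60 members whose neighbour was not a member. Filled points are the 21 neighbours that were 2-fold or more lower, and the dashed line is the median of all genes at 0.5 RPKM or more in PBS, 0.47.

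Transcript build differed less than promoter sequence between members and genes that stayed. The median transcript length was 2645 bases for members and 3307 for the genes of the same PBS range that stayed, the median exon number was 9 and 8, and the median GC content of the transcript was 50.5% and 49.4%. CpG is the dinucleotide that carries DNA methylation, and promoters rich in it are typical of genes used in most tissues, while genes of single tissues often lack it. Promoter sequence was taken from RefSeq (GRCm38.p6) as the 250 bases before the first start listed for each gene and was found for 47 members. For 21 of the 47 this window lay wholly outside the annotated span of the gene, and for the others it overlapped that span, which can begin at another start. The ratio of observed to expected CpG had a median of 0.311 in members, 0.729 in the 2484 promoters of genes that stayed, 0.663 in the opposite direction, and 0.378 over all 27025 RefSeq promoters. A ratio of at least 0.6 was reached by 14 of 47 members (29.8%), by 69.0% of the genes that stayed, by 48.4% of the other lower genes, and by 34.5% of all RefSeq promoters. With only the windows outside the gene span, a comparison added after the data were seen, the median was 0.242 in 21 members and 0.725 in 1260 genes that stayed, and a ratio of at least 0.6 was reached by 19.0%, 68.2%, 46.2% and 27.7% in the same order.

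**Figure D5:**
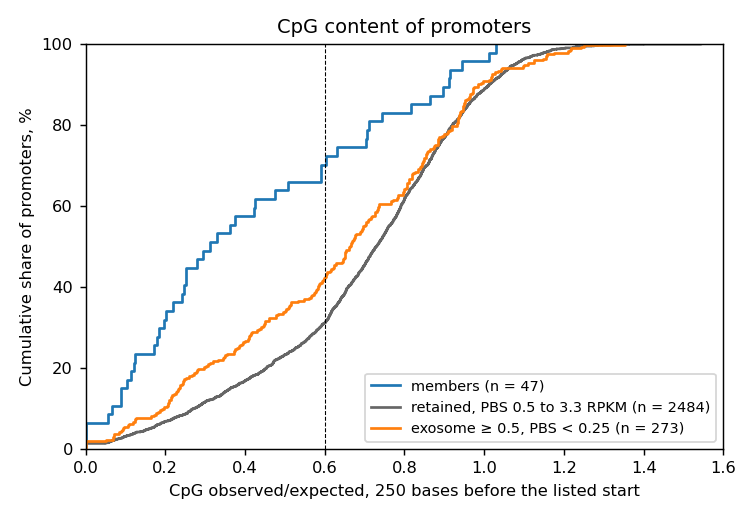
Cumulative percentage of promoters (y axis) by observed over expected CpG in the 250 bases before the first start listed for the gene (x axis), for members (blue), genes of the same PBS range that stayed at 0.25 RPKM or more (grey) and genes in the opposite direction (orange). The blue curve lies to the left of both others, with medians of 0.311, 0.729 and 0.663, and the dashed line marks 0.6.

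The range of these promoters is shown by 4 members, taken from those whose window lies outside the gene itself: the 2 with the lowest CpG ratio and, from those at 0.6 or more, the 2 with the highest PBS level. CG dinucleotides are in capitals and each window is given 5′ to 3′ on the strand of the gene. Ear11 has no CG (chr14:51256113-51256362, minus strand) and Il1f8 has 1 (chr2:24152922-24153171, plus strand), whereas Ctnnd2 has 21 (chr15:30172284-30172533, plus strand) and Cdkl2 has 11 (chr5:92043043-92043292, minus strand).
Ear11: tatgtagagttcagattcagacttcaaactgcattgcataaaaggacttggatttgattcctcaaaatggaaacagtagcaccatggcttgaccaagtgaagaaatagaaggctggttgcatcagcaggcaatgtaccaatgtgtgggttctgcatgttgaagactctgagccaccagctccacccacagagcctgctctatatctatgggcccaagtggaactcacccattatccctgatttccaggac
Il1f8: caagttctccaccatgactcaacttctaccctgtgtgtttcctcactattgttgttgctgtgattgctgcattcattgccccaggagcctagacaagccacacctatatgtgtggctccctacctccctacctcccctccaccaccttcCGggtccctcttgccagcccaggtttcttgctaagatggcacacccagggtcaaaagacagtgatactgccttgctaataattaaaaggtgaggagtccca
Ctnnd2: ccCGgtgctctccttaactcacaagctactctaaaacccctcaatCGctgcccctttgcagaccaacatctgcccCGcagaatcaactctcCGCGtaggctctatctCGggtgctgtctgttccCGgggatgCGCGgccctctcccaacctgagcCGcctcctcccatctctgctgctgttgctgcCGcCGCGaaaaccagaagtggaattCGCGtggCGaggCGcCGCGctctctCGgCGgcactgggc
Cdkl2: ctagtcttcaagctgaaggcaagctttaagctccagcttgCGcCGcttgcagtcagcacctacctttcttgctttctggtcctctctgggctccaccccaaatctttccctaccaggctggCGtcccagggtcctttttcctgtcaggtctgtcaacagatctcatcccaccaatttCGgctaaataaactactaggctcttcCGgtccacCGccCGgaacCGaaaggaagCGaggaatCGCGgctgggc

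Short motifs were then searched in the same 250 bases on both strands, as a description. The 10 motifs searched are all given here. TGANTCA, the motif of AP-1 factors, was present in 8 of 47 members (17.0%), 4.55% of the genes that stayed, 9.03% of the other lower genes, 5.86% of the opposite direction and 6.87% of all RefSeq promoters. In the windows outside the gene span it was in 3 of 21 members (14.3%) and 4.92% of the genes that stayed. TATAAA was in 14.9% of members, 6.28% of the genes that stayed and 13% of all RefSeq promoters, and AGATAA, the motif of GATA factors, in 14.9%, 6.56% and 10.3%. GGGCGG, a CpG-rich motif of Sp1 factors, was in 34.0% of members, 57.6% of the genes that stayed and 32.9% of all RefSeq promoters. CCAAT was alike in members (38.3%) and genes that stayed (38.5%), as was the ETS motif GAGGAA (23.4% and 22.2%). The C/EBP motif TTGCNNAA was in 8.51% of members and 7.0% of the genes that stayed, and the E-box CACGTG in 2.13% and 8.53%. GGGNNNTCC, a shortened form of the NF-kB motif, was in 8.51% and 18.3%. The classical NF-kB site, with a further base between GGG and TCC, was not searched, so these shares do not describe it. GAGGAAGT, the motif of PU.1 that contains GAGGAA, was in 0 of the 47 member windows and in 2.33% of the genes that stayed. A match of letters is not a bound site, and which start these cells use is not known: for 31 of the 47 members the 40 bases after the start lay in the longest annotated transcript.

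The 8 members with TGANTCA are shown because the share of members with this motif was, as a ratio, the furthest above that of the genes that stayed among the 10 motifs. Each line gives the motif in capitals with up to 10 bases on either side, on the strand of the gene. The motif began 35 bases before the listed start in Mmp13 and 36 in Scel, and between 64 and 236 bases before it in the other 6.
Ccr3 (chr9:124021817-124021843, plus strand): agtctgtccaTGAGTCAatgattattg
Eml1 (chr12:108370938-108370964, plus strand): taaatggtccTGACTCAgtaggtggga
Hamp (chr7:30944100-30944126, minus strand): ttcttggaaaTGAGTCAgagcaaaatg
Il1f8 (chr2:24152926-24152952, plus strand): ttctccaccaTGACTCAacttctaccc
Impg2 (chr16:56204144-56204170, plus strand): tttgacccacTGAGTCAgaacatctgg
Mmp13 (chr9:7272469-7272495, plus strand): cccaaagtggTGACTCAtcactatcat
Mylk (chr16:34784876-34784902, plus strand): aaggcactggTGAGTCAgcagggctta
Scel (chr14:103513295-103513321, plus strand): cctccctgcgTGACTCAgtgttgagag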

How the data were processed

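RNA was extracted with TRIzol and sequenced from TruSeq mRNA libraries. The authors trimmed the reads by quality and computed RPKM in CLC Genomics Workbench 8.0 on mm10 per the labels and the methods of the study, and 1 deposited RPKM value per feature and sample was used as it stood. The annotation, the treatment of reads with several matches, the strand setting and any pooling of animals are not given in the sources used here. RPKM above 0.01 was rounded to 0.01. RPKM values are not counts, and with 1 library per treatment no test was run. Depth was estimated from RPKM values below 0.01 that stand for 1 read, with the longest transcript of each gene in GENCODE M21, and was used for 95% counting intervals only, exact Poisson for RPKM and Clopper-Pearson for ratios. This step was tested on simulated data made with the same transcript lengths, so the test could not show the effect of other lengths in the authors' annotation. In the real data, 264 of 994 values below 0.01 in PBS lay at the commonest depth, and 318 of 1159 with exosomes. Gene spans and promoters came from RefSeq (GRCm38.p6). Members and lists were chosen with earlier results of these data known. Named were the 20 members with the highest PBS RPKM, up to 6 members of each list, and the 3 genes nearest each limit on either side. Other members and relatives were named by role groups drawn up after the values were seen, as were the promoter, motif and neighbour comparisons. Python 3.11.15 with pandas 2.3.3, numpy 2.4.6 and scipy 1.17.1 was used.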

Additional observations from a re-analysis of the deposited data

How the results depend on the processing

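The number of members depended on both limits and on the scaling. It was 22 with a PBS RPKM of at least 1, 278 with at least 0.25, 17 with an exosome RPKM below 0.1, and 227 with below 0.5. Centring on the median ratio, or on a trimmed mean of it, which lower the exosome values by 0.53 and 0.54 on the log2 scale, each gave 141, which held all 68 members and 73 further genes. Rescaling to one total gave 68, and a required ratio of at least 4, with 0.01 added to both values, gave 48. In the opposite direction the 352 genes became 118, 731, 61 and 963 under the matching limits and 199 under both centrings. The median log2 ratio of the members was -1.90 with a pseudocount of 0.1, -1.37 with 0.25, -3.62 for members at a PBS RPKM of at least 1, -2.98 with median centring and -2.99 with the trimmed mean removed. Members on a marker or function list numbered 3 at a PBS RPKM of at least 1 and 1 at an exosome RPKM below 0.1, against 8. No paired analysis was possible because each treatment had 1 library, and for the same reason no replicate could be left out. Exosome values of members rest on as few as 1 estimated read. Those named at the exosome limit rest on about 6 (S100a2), 23 (Il1f8) and 215 (Nav2).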

Other observations

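The limits leave out genes that were lowered as far from a higher start. Among the other genes at an RPKM of at least 0.5 in PBS, 49 had a log2 ratio at or below the members' median of -2.50. They included Syp, the synaptic vesicle protein synaptophysin (6.58 RPKM in PBS and 0.61 with exosomes). The same range held abundant products of late neutrophil development, with Retnlg at 3021 and 208.33 RPKM, the cathelicidin gene Camp at 381.38 and 33.92, the granule gene Ngp at 862.34 and 85.01, and the lactoferrin gene Ltf at 143.98 and 15.09. Itgb2l, an integrin beta chain, was at 16.72 and 1.04 RPKM. These are values of 1 library each, with no test.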
